A study of Rattus norvegicus with 2 samples.

Results

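The genes described here belong to the pathway that runs from insulin receptor substrates through the kinase Akt and the Tsc1-Tsc2 complex to the kinase mTOR. They were chosen by name, as 8 genes: Akt1, Akt2, Mtor, Tsc1, Tsc2, Rictor, Irs2 and Rps6kb1. Every probe set whose single gene symbol in the platform annotation was one of these was taken. This gave 13 probe sets for 7 genes, out of 8740 non-control probe sets, of which 7006 carried 1 symbol and represented 4736 genes. No probe set was found for Tsc1 by this rule, and it was not analysed here. Irs2 had 4 probe sets, Akt1, Akt2 and Rps6kb1 had 2 each, and Mtor, Tsc2 and Rictor had 1 each.

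The study set RNA of hippocampal synaptosomes, which are nerve endings sheared off during homogenization together with attached postsynaptic membrane, against RNA of the total hippocampus. Both samples came from Sprague Dawley rats at postnatal day 70, with no treatment or genotype named in the labels. RNA was amplified from an oligo(dT) primer by the SMART cDNA method and transcribed into biotin-labelled cRNA, and each of the 2 samples was read on 1 array. With 1 array per group no test between the groups could be made, and every value below is a single measurement. The labels do not give the number of animals behind a sample.

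In this pathway, growth factor receptors phosphorylate adaptors of the insulin receptor substrate family, which recruit phosphoinositide 3-kinase, and the lipid it makes brings Akt to the membrane. Active Akt phosphorylates Tsc2 and so releases the small GTPase Rheb, which switches on mTOR complex 1. That complex phosphorylates the S6 kinase and the 4E-binding proteins and thereby promotes translation, also in dendrites, where mTOR signalling is known for its part in local protein synthesis. mTOR complex 2, which contains Rictor, phosphorylates Akt. mRNA levels, as measured here, say nothing of the phosphorylation by which most of these steps are controlled.

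Akt1, Mtor, Tsc2 and 1 of the 4 Irs2 probe sets read higher on the synaptosome array, and Rictor read lower. Akt2 and Rps6kb1 were too dim on both arrays for a ratio to be read. On the hippocampus array all 13 signals were low: the brightest was 2618, and none reached 5280.25, the value that 95% of that array's negative signals stay under in size, used here as a measure of its background spread. On the synaptosome array 4 of the 13 exceeded the corresponding value of 2912.6. They were Akt1 (rc_AA799664_at), Tsc2, Mtor and Irs2 (AF087674_at). Over all non-control probe sets, the background spread was exceeded by 23.9% in synaptosomes and by 14.7% in the hippocampus. The size of every fold change of these 13 probe sets therefore rests on a hippocampus signal within the background spread.

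**Figure D1:**
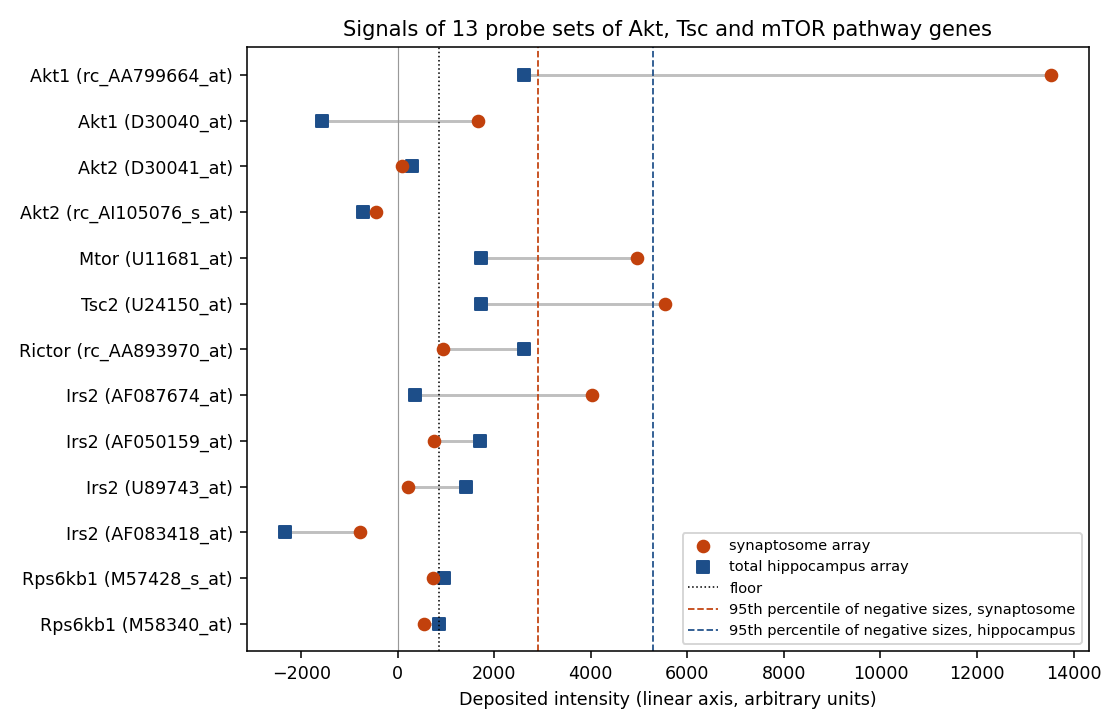
Deposited intensity (horizontal axis, linear, arbitrary units) of each of the 13 probe sets on the synaptosome array (circles) and the total hippocampus array (squares), with 1 array per group and so no error bars. The dotted line is the floor of 846, and the dashed lines are the background spreads of the arrays, 2912.6 (synaptosome) and 5280.25 (hippocampus). Only 4 circles lie right of the synaptosome line, and no square lies right of the hippocampus line.

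Log2 ratios were taken as synaptosome minus total hippocampus after signals under a floor of 846, the median of all pooled non-control signals, had been set to it. The median ratio of the 4370 probe sets that passed a filter on mean level, -0.17, was then subtracted. This centring makes a fold for a higher gene 1.13 times the quotient of the signals and a fold for a lower gene smaller by the same factor. Where 1 array lay at the floor the fold is a bound, written "at least", which takes both signals at face value and is no guaranteed minimum, since the background spread exceeds the floor. No replicate array gives an error for these ratios. Probe sets for the same gene disagreed with an SD of 0.90 on the log2 scale over 658 genes with several filtered probe sets. This within-gene SD leaves out the spread between animals, preparations and amplifications, so a ratio larger than it is not thereby shown to differ. The 9 spiked-in bacterial and phage controls had log2 ratios from -1.14 to 0.64 between the arrays before centring.

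Irs2 encodes an adaptor that links the insulin and IGF-1 receptors to phosphoinositide 3-kinase, and its 4 probe sets gave no common direction. Probe set AF087674_at read 4033 in synaptosomes against 359 in whole hippocampus, which is at least 5.36-fold higher with centring and at least 4.77-fold without. Probe set AF050159_at read 760 in synaptosomes against 1711 in whole hippocampus, at least 1.80-fold lower. Probe set U89743_at read 210 in synaptosomes against 1411 in whole hippocampus, at least 1.48-fold lower. For the fourth probe set, AF083418_at, the signals were -777 in synaptosomes against -2336 in whole hippocampus, both under the floor, and no ratio was formed. The log2 ratios of the 3 probe sets with one were 2.42, -0.85 and -0.57. The distance between the first and each of the others exceeded the within-gene SD, but all 3 ratios are bounds. Both signals of AF050159_at and of U89743_at lay within the background spread of their arrays, so their lower readings are not a measured decrease. These arrays therefore give no single direction for Irs2.

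Akt1, the most widely expressed Akt kinase, was higher in synaptosomes with both probe sets. Probe set rc_AA799664_at read 13524 in synaptosomes against 2618 in whole hippocampus, a log2 ratio of 2.54 or 5.81-fold. Its synaptosome signal was 4.64 times the background spread of that array. Probe set D30040_at read 1671 in synaptosomes against -1568 in whole hippocampus, which is at least 2.22-fold higher. Here neither signal lay outside the background spread of its array, and without centring the bound was 1.98-fold.

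Akt2, the isoform best known for its part in the insulin response of muscle, fat and liver, was at the floor on both arrays with both probe sets. Probe set D30041_at read 78 in synaptosomes against 287 in whole hippocampus. Probe set rc_AI105076_s_at read -456 in synaptosomes against -717 in whole hippocampus. Neither the presence of Akt2 mRNA nor a difference between the samples was detectable, so whether Akt1 and Akt2 differ in their distribution could not be read from these arrays.

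Tsc2 encodes tuberin, the subunit of the Tsc complex that acts on Rheb and is phosphorylated by Akt. Its probe set U24150_at read 5543 in synaptosomes against 1727 in whole hippocampus, a log2 ratio of 1.85 or 3.61-fold higher. Mtor encodes the kinase itself, the catalytic subunit of both mTOR complexes. Its probe set U11681_at read 4956 in synaptosomes against 1716 in whole hippocampus, a log2 ratio of 1.70 or 3.25-fold higher. The ratios of the kinase and of the subunit that restrains it lay close, but with 1 array per group this does not show a common change. With the floor raised to the background spread of each array, the log2 ratios were at least 0.41 for Tsc2 and at least 0.25 for Mtor. With the floor at percentile 75 of the pooled signals, 2798.5, they were at least 1.07 for Tsc2 and at least 0.91 for Mtor. Both floors replaced the hippocampus signals of these genes, so a bound under 2-fold does not show a ratio under 2-fold. Each gene has a single probe set, so neither ratio has a second measurement on these arrays.

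Rictor, the defining subunit of mTOR complex 2, was the member that went the other way by more than 2-fold. Its probe set rc_AA893970_at read 936 in synaptosomes, just above the floor, against 2611 in whole hippocampus. This was a log2 ratio of -1.31 or 2.48-fold lower. Both signals lay within the background spread of their arrays. No second probe set measured this gene.

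Rps6kb1 encodes the S6 kinase, a direct substrate of mTOR complex 1 that phosphorylates ribosomal protein S6. Probe set M57428_s_at read 721 in synaptosomes against 959 in whole hippocampus. Probe set M58340_at read 547 in synaptosomes against 853 in whole hippocampus. All 4 signals lay close to the floor, neither probe set passed the filter, and no difference was detectable.

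Of the 13 probe sets, 8 passed the filter, from 5 genes, and 4 of these 8 were above the floor on both arrays. A fold of 2 or more was reached upward by 5 of the 8 and downward by 1, while 2 lay between. Among all 4370 filtered probe sets, 19.1% reached it upward and 14.9% downward. The median log2 ratio of the 8 was 1.43, against 0.00 over all filtered probe sets. A dim probe set passes the filter only where 1 array reads high, so the 5 that failed it belong in the account. Of those that passed, the dimmer Akt1 probe set and AF087674_at of Irs2 did so only through their synaptosome signals. Rictor and the Irs2 probe sets AF050159_at and U89743_at passed only through their hippocampus signals. Without the filter, 5 of 10 probe sets with a ratio were at least 2-fold higher and 1 was lower, against 14.9% and 13.6% of all 5272. The members' median was then 0.61. This adds only the 2 probe sets of Rps6kb1, since the other 3 were at the floor on both arrays and had no ratio. With each gene represented by its brightest filtered probe set, 4 of 5 genes were at least 2-fold higher and 1 lower, where 19.1% and 14.3% of 2735 genes were. Irs2 counts among the 4 only through AF087674_at, which is its brightest probe set because of its synaptosome signal. Since the 8 probe sets include 3 of Irs2 and 2 of Akt1, they are not 8 independent measurements.

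**Figure D2:**
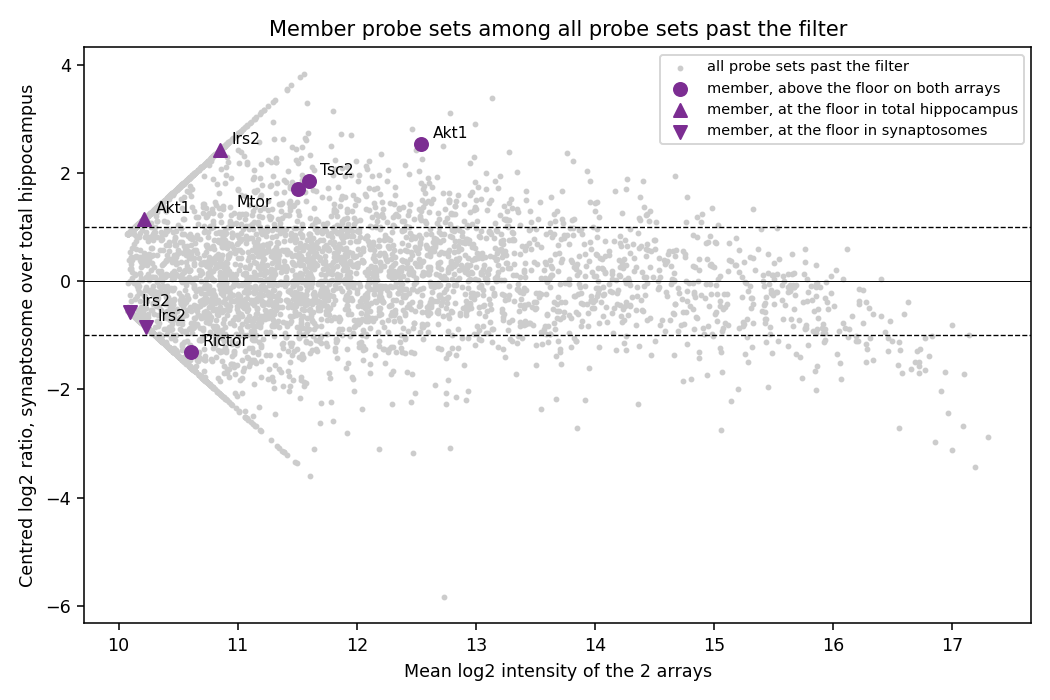
Centred log2 ratio of synaptosome over total hippocampus (vertical axis) against the mean log2 intensity of both arrays (horizontal axis) for 4370 filtered probe sets (grey) and the 8 filtered member probe sets (purple). Upward triangles are at the floor in total hippocampus, downward triangles at the floor in synaptosomes, and dashed lines mark 2-fold. The brighter Akt1 probe set, Tsc2 and Mtor lie above the upper line with both signals over the floor, and Rictor lies under the lower one.

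By the rank of its ratio among the 4370 filtered probe sets, the brighter Akt1 probe set stood at place 53 from the top and AF087674_at of Irs2 at place 75. Tsc2 stood at place 230, Mtor at 297 and the dimmer Akt1 probe set at 663. Rictor stood at place 4007, at percentile 8.33 counted from the lowest ratio. The middle 90% of all filtered probe sets ran from a log2 ratio of -1.55 to 1.87. The brighter Akt1 and AF087674_at of Irs2 thus lay outside that range, while Tsc2, Mtor and Rictor lay inside it.

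The place of a signal among all 8740 non-control probe sets of its own array does not depend on any scaling between arrays. The brighter Akt1 probe set was at percentile 93.7 for synaptosomes and 73.1 for whole hippocampus. Tsc2 was at 85.9 in synaptosomes and 63.7 in the total hippocampus, and Mtor at 84.3 and 63.7. Rictor was at percentile 52.8 in synaptosomes and 73.1 in the total hippocampus. The Rps6kb1 probe sets lay near the middle of both arrays, at 48.0 and 43.2 in synaptosomes and at 51.3 and 49.3 in the total hippocampus. The Akt2 probe sets lay in the lower part of both, at 27.7 and 13.5 in synaptosomes and at 37.3 and 18.4 in the total hippocampus. For Irs2 the percentile of AF087674_at was 81.5 in synaptosomes and 38.8 in the total hippocampus, while U89743_at was at 32.3 and 58.9. These ranks restate the signals behind the ratios without the centring and are no separate measurement.

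**Figure D3:**
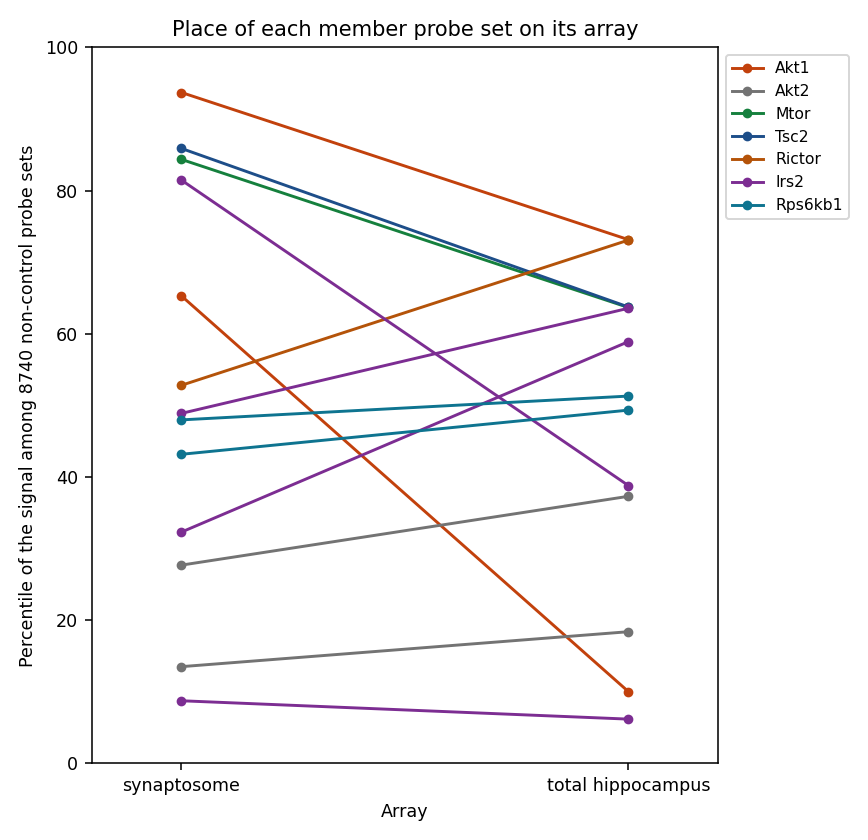
Percentile of each member signal among the 8740 non-control probe sets of the same array (vertical axis), on the synaptosome array (left) and the total hippocampus array (right); each line is 1 probe set, coloured by gene. Akt1, Tsc2 and Mtor stand higher in synaptosomes, Rictor stands lower, and the lines of Irs2 cross.

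The other genes of the pathway were taken from a list of 59 genes in 5 groups. Of these, 35 had a probe set with 1 symbol, 21 passed the filter, and 1 reached 2-fold upward in synaptosomes and 0 downward, where 19.1% and 14.3% of all filtered genes did. The remaining 20 lay between, with log2 ratios from -0.86 to 0.68. The median of the 21 was -0.02, against 0.00 over all 2735 genes. For 6 of the 21 the signals used exceeded the background spread on both arrays, which no member did.

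Among ligands, receptors and adaptors, 4 of 7 genes on the array passed the filter and all 4 lay within 2-fold. Igf2, a growth factor, read 5200 in synaptosomes against 4159 in whole hippocampus, a log2 ratio of 0.49. Igf1r, the IGF-1 receptor, read 3032 in synaptosomes against 4046 in whole hippocampus, a log2 ratio of -0.25. The insulin receptor gene Insr and the adaptor genes Irs1 and Irs3 were at the floor on both arrays. Irs1 read 580 in synaptosomes against 523 in whole hippocampus.

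Of the phosphoinositide 3-kinase subunits and lipid phosphatases, 3 of 10 genes on the array passed the filter. Inpp4a, which removes the 4-phosphate of phosphoinositides, was the gene that passed 2-fold: it read 6717 in synaptosomes against 651 in whole hippocampus, at least 8.93-fold higher. It no longer counted as 2-fold higher with the floor at the background spread, and the filter at percentile 75 and the restriction to probe sets above the floor on both arrays left it out. Pik3cd, a catalytic subunit, read 6002 in synaptosomes against 9577 in whole hippocampus, a log2 ratio of -0.50. Inpp5d, a 5-phosphatase best known from blood cells, read 1452 in synaptosomes against 2971 in whole hippocampus, a log2 ratio of -0.86. The other 7 genes of this group did not pass the filter, among them Pik3r1 and Pik3r2, which encode regulatory subunits and were at the floor on both arrays with every probe set.

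Of the kinases beside Akt, 3 of 4 genes on the array passed and all 3 lay within 2-fold. Gsk3b, a kinase that Akt inhibits, had log2 ratios of 0.56 and 0.37 with its 2 probe sets, and the brighter read 10692 in synaptosomes against 8139 in whole hippocampus. Gsk3a had a log2 ratio of -0.02. Pdpk1, the kinase that activates Akt, read 728 in synaptosomes against -540 in whole hippocampus and had no ratio.

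Of the partners and regulators of mTOR, 5 of 8 genes on the array passed and all 5 lay within 2-fold with the brightest probe set. Rheb, the activator of mTOR complex 1 on which Tsc2 acts, had log2 ratios of 0.54 and 0.85 with its 2 probe sets. The brighter read 7917 in synaptosomes against 6114 in whole hippocampus. Mlst8, a subunit of both mTOR complexes, read 2362 in synaptosomes against 3854 in whole hippocampus, a log2 ratio of -0.54. Both of these Mlst8 signals lay within the background spread of their arrays. The second Mlst8 probe set read -501 in synaptosomes against -5550 in whole hippocampus and had no ratio. Fkbp1a, the protein through which rapamycin binds mTOR, had 4 filtered probe sets with log2 ratios of 0.46, 0.50, -0.43 and -1.32. Rraga, a GTPase of amino acid sensing, read 3316 in synaptosomes against 5114 in whole hippocampus, a log2 ratio of -0.45.

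All 6 output genes on the array passed the filter and lay within 2-fold with the brightest probe set. Rps6, the substrate of the S6 kinase, read 29542 in synaptosomes against 34616 in whole hippocampus, a log2 ratio of -0.06. Eif4ebp1, a translation repressor that mTOR complex 1 inactivates, had log2 ratios of -0.25 and -1.08 with its 2 filtered probe sets. Eif4e, the cap-binding factor it holds back, read 2278 in synaptosomes against 4565 in whole hippocampus, a log2 ratio of -0.83. Eef2, the elongation factor, had log2 ratios of 0.44, -0.38 and 0.69 with its 3 filtered probe sets, the brightest first. Eef2k, which encodes the kinase that inhibits it, had one of -0.02.

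**Figure D4:**
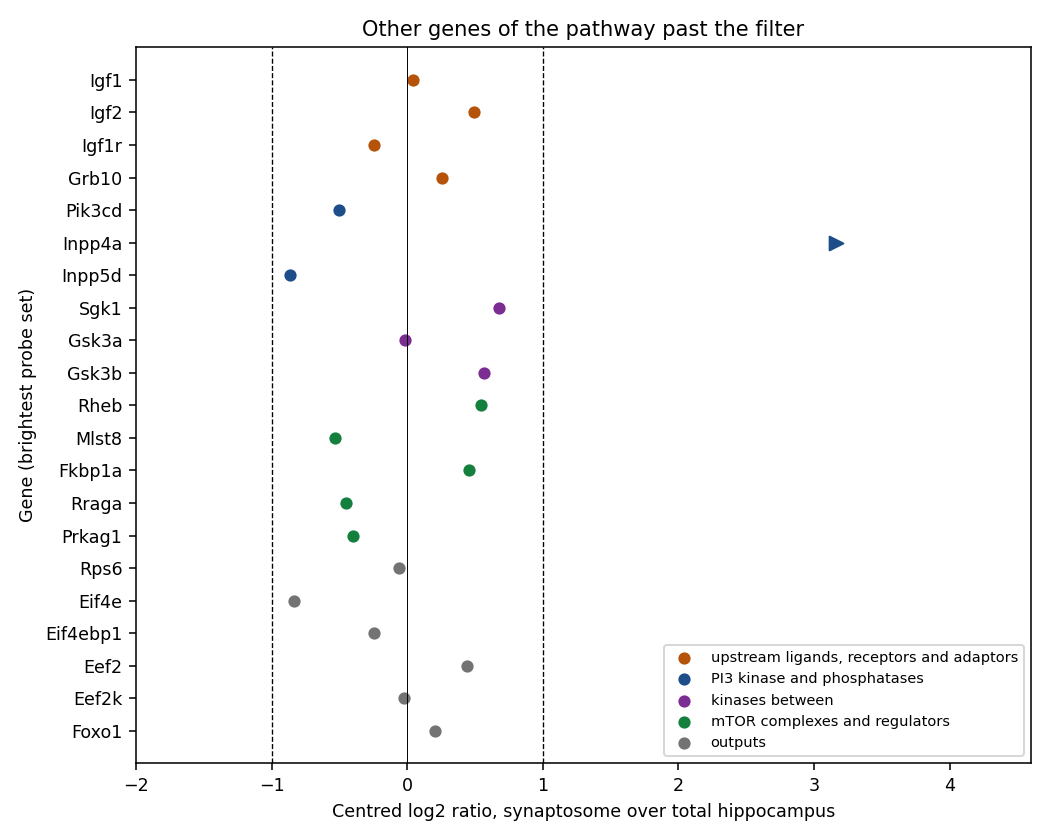
Centred log2 ratio of synaptosome over total hippocampus (horizontal axis) for the 21 other pathway genes past the filter, each by its brightest probe set and coloured by group; dashed lines mark 2-fold and the triangle marks a gene at the floor in the total hippocampus. Inpp4a lies beyond 2-fold and the other 20 lie between the lines.

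Facts of the arrays as a whole bear on these values. The 3′ to 5′ signal ratio of the beta-actin control was 7.79 for synaptosomes and 4.96 for whole hippocampus, and that of Gapdh 1.07 and 1.05. All 8 neuronal markers were above the floor on both arrays, with summed signals (the brightest probe set of each gene, values below 0 taken as 0) of 108795 in synaptosomes against 168567 in whole hippocampus. Without Snap25, which read 32782 in synaptosomes against 109086 in whole hippocampus, the other 7 summed to 76013 in synaptosomes against 59481 in whole hippocampus. The median log2 ratio of the 8 was 0.23, with 0 at least 2-fold higher and 1 lower. Of 5 oligodendrocyte markers, 3 were at least 2-fold lower in synaptosomes and 1 higher, with sums of 22946 and 41456. Astrocyte markers, 5 on the array and all above the floor on both, summed to 143342 in synaptosomes against 114814 in whole hippocampus, with 1 at least 2-fold higher and 1 lower. The higher one was S100b, which read 61538 in synaptosomes against 27401 in whole hippocampus, and the direction of the astrocyte sums rested on it. The lower one was Slc1a2, which read 1230 in synaptosomes against 3940 in whole hippocampus. Microglial markers summed to 11275 in synaptosomes against 7059 in whole hippocampus over 5 genes. Most of both sums came from Aif1, which read 9709 in synaptosomes against 5538 in whole hippocampus. Csf1r read below 0 on both arrays, and Itgam and C1qb on the hippocampus array. Vessel markers summed to 4747 in synaptosomes and 12999 in the total hippocampus over 4 genes, with 2 of 3 filtered genes at least 2-fold lower, Vwf below 0 on both arrays and Kdr in synaptosomes. Markers of red cells and choroid plexus summed to 13414 in synaptosomes and 45437 in the total hippocampus over 3 genes, 1 of them at least 2-fold lower. The part of RNA quality and of these cell types in the ratios of Akt1, Tsc2, Mtor, Irs2 and Rictor was not tested, and in such bulk RNA fewer cells of a type and less RNA per cell cannot be told apart.

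The direction of the Akt1, Tsc2, Mtor and Rictor ratios was the same under each of the alternatives that gave them a value. For Mtor this held with a floor at the background spread only through the centring. The alternatives reprocess the same signals, so a shared direction is no separate evidence. The floors at percentile 75 and at the background spread gave no value for Rictor or for the dimmer Akt1 probe set. The brighter Akt1 probe set had a log2 ratio of 1.70 to 2.71 over 10 alternatives, and the dimmer one of 0.98 to 1.32 over the 6 that included it. Tsc2 ranged from 0.41 to 2.03 and Mtor from 0.25 to 1.87. The lowest value of all 3 came from a floor at the background spread of each array, where the hippocampus signals of all 3 were replaced by 5280.25. These lowest values are therefore bounds, as are the values of all 3 with the percentile 75 floor. The hippocampus floor of 5280.25 exceeded the Mtor synaptosome signal of 4956. With the percentile 75 floor the bound for Mtor was also under 2-fold. Rictor ranged from -1.48 to -1.14 over 7 alternatives, and the other 3 left it out. AF087674_at of Irs2 ranged from -0.044 to 2.60. Its lowest value, with the floor at the background spread, is a bound, at least -0.044. There 5280.25 replaced its hippocampus signal of 359 and exceeded its synaptosome signal of 4033, so no change of direction can be read.

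**Figure D5:**
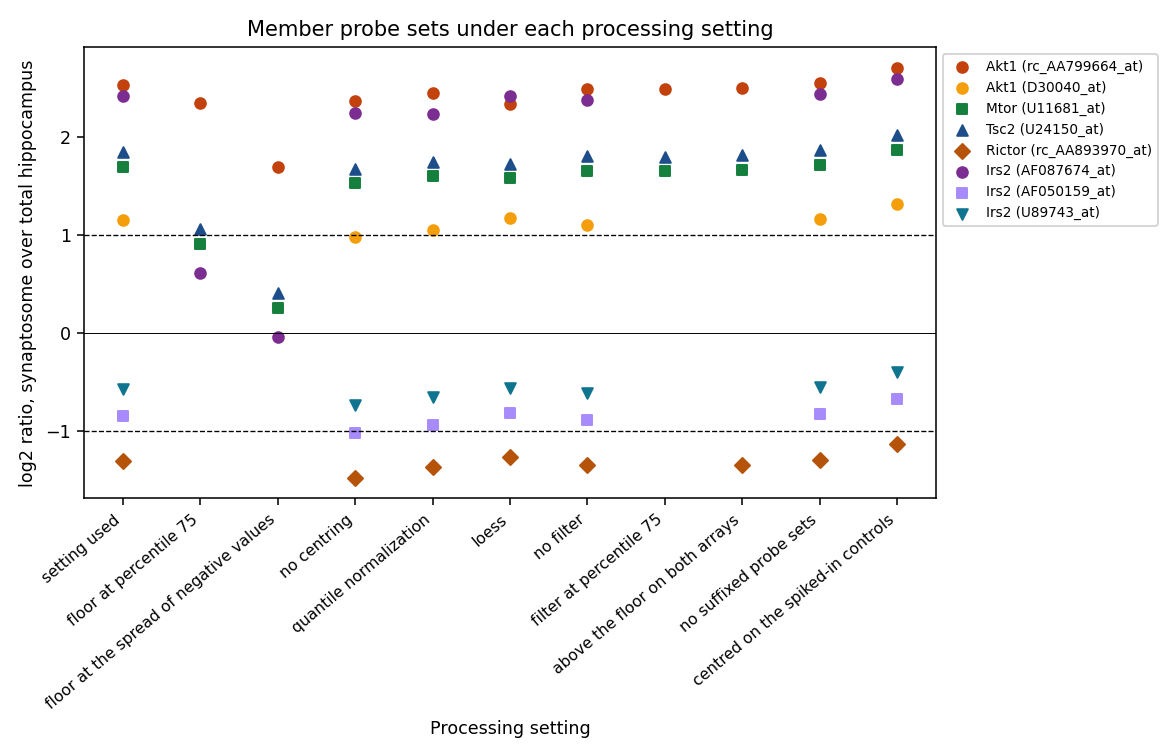
Log2 ratio of synaptosome over total hippocampus (vertical axis) of the 8 filtered member probe sets under the setting used and 10 alternatives (horizontal axis); a missing point means that the probe set was left out. Dashed lines mark 2-fold. The brighter Akt1 probe set lies above the upper line in every column, while Tsc2, Mtor and AF087674_at of Irs2 drop under it with the floor at the spread of negative values, and Mtor and AF087674_at also with the floor at percentile 75. All points with either of these floors are bounds.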

How the data were processed

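The authors' deposited table gives linear intensity values, 1 column per array, for 8799 probe sets, of which 59 are controls. The array software is not given in the sources used here. Signals at or below 0 made up 25.2% of the synaptosome column and 31.4% of the hippocampus column, controls left out. The mean after trimming 2% at each end was 2500 on both, so the signals were not scaled further before the log2 ratios were centred. Percentile 25 of the pooled signals was -133 and has no logarithm, so percentile 50, 846, served as floor. Probe sets with a mean log2 level of at least 10.07 passed the filter. Gene symbols came from the platform annotation, checked by gene identifier against the RefSeq rat gene table. Members and lists were chosen with earlier results of these data known. For members, every probe set is named; for the pathway list, every gene past 2-fold and a few between. With 1 array per group, the number of arrays sets the limit on precision. The software was Python 3.11.15, NumPy 2.4.6, pandas 2.3.3, statsmodels 0.14.6 and matplotlib 3.10.9. The steps were tested on simulated data without noise between the arrays, which checks the arithmetic only. Alternatives changed the floor, centring, normalization, filter and choice of probe sets.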

Additional observations from a re-analysis of the deposited data

How the results depend on the processing

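With the floor at percentile 75 of pooled signals, 2798.5, only 4 member probe sets were left, of which 2 were at least 2-fold higher and 0 lower. Of all probe sets left in that setting, 9.7% were higher and 8.9% lower. AF087674_at of Irs2 had a log2 ratio of at least 0.61 there. The ratios of all 4 are bounds, since that floor replaced their hippocampus signals. With the floor at the background spread of each array, where the ratios are again bounds, 1 of 4 was higher and 0 lower. Of all probe sets left, 9.7% were higher and 6.4% lower. The members' median was 0.33. The log2 ratio of AF087674_at was -0.044, a bound, since the hippocampus floor of 5280.25 exceeded its synaptosome signal of 4033. Of the pathway list 0 genes were higher. Without centring 4 of 8 member probe sets were higher and 2 lower, against 14.8% and 20.3% of all filtered probe sets. In that setting 2 of 21 pathway genes, Inpp5d and Eif4e, were lower. Under a stricter filter, at percentile 75, 3 of 3 member probe sets were higher and 0 lower, against 13.5% and 12.8% of all. The mean level this filter uses includes the synaptosome signal, so 3 of 3 is no support for a difference. With probe sets above the floor on both arrays 3 of 4 were higher and 1 lower, against 12.7% and 11.9% of all. In both settings 0 pathway genes were higher. The members' median ran from 0.33 to 1.81 and that of the pathway list from -0.19 to 0.22. Quantile normalization, loess and probe sets without suffix left the member counts at 5 and 1, as did centring on the spiked-in controls, chosen after seeing the data, whose median log2 ratio was -0.34. The shares of all filtered probe sets in these settings ran from 16.7% to 24.3% higher and from 11.2% to 16.7% lower. No paired analysis was possible because each group has 1 array. Signals within the background spread limit what can be read from these members.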
